A study of Mus musculus with 8 samples.

Results

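The collagen genes were taken as every gene whose single symbol on the array was Col, a number, a and a number. The rule found 41 genes among the 20796 genes with a symbol, measured by 81 of the 45037 probe sets tested. Each gene was represented by the probe set with the highest mean signal over the 8 arrays, and 26 of the 41 had more than 1 probe set. The arrays compared abdominal white adipose tissue of adult rsl mice (strain B10.D2.PL, rsl/rsl, which lack the Rsl genes) with that of wild type mice (strain B10.D2, Rsl/Rsl), in males and in females. Each of the 4 groups had 2 pools, each of RNA from 5 mice, and no label tells whether any mouse gave RNA to both pools. All mice ate the same standard chow. No age beyond adult is given. Values are log2 signals from Affymetrix mouse genome arrays (perfect match probes alone), normalized between arrays by the authors with RMA (robust multi-array average), so a difference of 1 is a 2-fold change. A gene was called where its adjusted p was under 0.05 in limma, a linear model with a spread shared across genes, fitted to all 8 arrays and adjusted with Benjamini-Hochberg over all 45037 probe sets. Errors beside differences are standard errors (SE) of that fit, with n = 2 pools a group.

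Collagens are secreted proteins of 3 chains wound into a triple helix, and they carry much of the mechanical load of tissues. Types I, III and V form fibrils, and fibril-associated collagens such as types XII and XIV decorate them. Type IV forms the sheet of basement membranes, which in fat surrounds each adipocyte and each vessel, and type VI forms beaded filaments that are abundant around adipocytes. The Rsl genes code for KRAB zinc finger proteins (repressors of transcription that carry a Krüppel-associated box), known from mouse liver for restraining genes that differ between the sexes.

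The pools carried the sex and genotype of their labels. Rsl1 had 3.56 to 3.98 in the 4 rsl pools, near background, against 4.62 to 5.25 in the 4 wild type pools, and Ddx3y, on the Y chromosome, had 9.05 to 9.43 in male pools, against 2.76 to 3.11 in female pools. One label field names liver RNA as the source and another names white adipose tissue. All 12 measured adipocyte markers were above background in every pool, with a list mean of 11.10 to 11.83. Replicate pools of females lay closer together than those of males. Of the 41 collagen genes 8 differed by at least 0.5 between the rsl male pools, 1 between the wild type male pools and 0 between the pools of either female group. Male pools also held RNA of other tissues in unequal amounts. For 10 epididymis markers the mean was 12.18 and 11.67 in rsl male pools 1 and 2, against 7.04 and 5.29 in wild type male pools 1 and 2, with female pools at 3.83 to 4.06. For 8 testis and sperm markers it was 6.72 and 5.10 in the rsl male pools, against 6.81 and 6.72 in the wild type male pools, with female pools at 3.75 to 3.88. A list of 10 genes of skeletal muscle averaged 4.31 to 4.50 in male pools, against 5.59 to 7.88 in female pools. In bulk tissue, fewer cells of a type and less RNA per cell cannot be told apart.

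Of the 41 collagen genes 29 were above the non-specific background of the array in all 8 pools, 6 in some of them and 6 in none. Background was the highest of 22 control probe sets on each array and lay between 3.73 and 4.01. One further control, with the highest GC count, lay at 5.98 to 6.32 and was left out with its values in view. With it as background 17 of the 41 would be above it in all 8 pools, 3 in some and 21 in none, and Col6a4, Col6a5, Col13a1, Col17a1 and Col23a1 would be above it in no pool. By the background of the 22 controls, all 6 basement membrane collagens (Col4a1 to Col4a6) were above background in every pool. So were 7 of 11 fibrillar, 6 of 9 fibril-associated, 3 of 5 beaded filament and 2 of 4 transmembrane collagens, both multiplexins (Col15a1 and Col18a1, which associate with basement membranes), the short chain collagens Col8a1 and Col8a2, and Col7a1 of anchoring fibrils. Never above background were Col9a2, Col10a1, Col11a1, Col11a2, Col19a1 and Col24a1. Col9a3 was above it in 8 pools, Col2a1 in 7 and Col9a1 in 3. Col3a1 of fibrillar type III averaged 12.46 over the 8 pools, Col1a2 of type I 11.82, Col4a1 11.23, Col6a2 10.55 and Col6a3 10.36. Signals of different probe sets do not rank transcripts, since each has its own brightness. The brightest Col3a1 probe set spanned 0.69 over the pools, with all 4 female pools above all 4 male pools. It had 12.05 and 12.42 in rsl males, against 12.30 and 12.43 in wild type males, and 12.55 and 12.48 in rsl females, against 12.74 and 12.67 in wild type females.

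**Figure D1:**
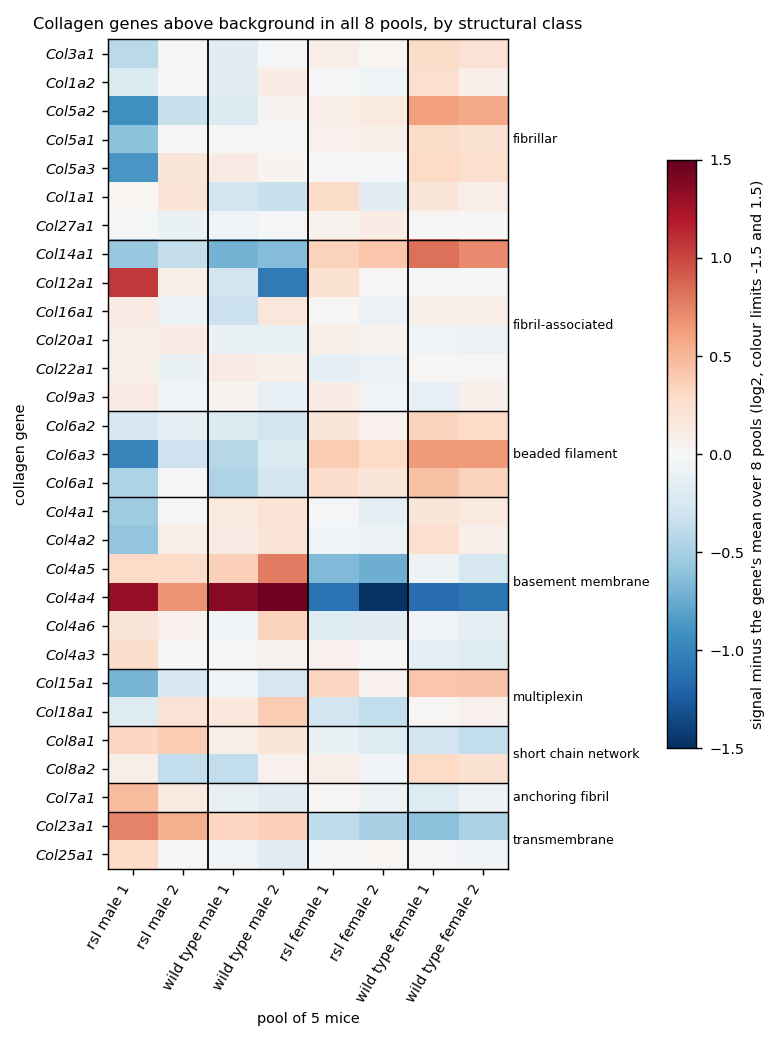
Signal of the 29 collagen genes above background in all 8 pools, as the log2 difference from the gene's own mean over the pools (colour), with 1 column for each pool and the genes grouped by structural class. Col4a4 and Col4a5 are red in the 4 male pools, Col14a1, Col6a3 and Col6a2 are blue there, and the fibrillar genes are pale apart from Col5a2 and from rsl male pool 1.

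Of the 41 collagen genes, each read from its brightest probe set, Col6a4 alone was called between the genotypes, and it was higher in rsl mice. Col6a4, a chain of beaded filament collagen VI whose human counterpart is broken, had 5.43 and 4.95 in rsl male pools, against 3.75 and 3.75 in wild type male pools. Wild type males lay at the background of their arrays (1 of 2 pools above it), and both rsl pools were above it. The difference in males was 1.44 ± 0.15 (adjusted p = 0.014). In females Col6a4 had 4.89 and 4.78 in rsl pools, against 3.91 and 3.88 in wild type pools, a difference of 0.94 ± 0.15 that was not called (adjusted p = 0.089). Averaged over sex the difference was 1.19 ± 0.10 (adjusted p = 0.00665), and all 4 rsl pools were above all 4 wild type pools. The differences in the sexes did not themselves differ past the threshold (interaction 0.49 ± 0.21, adjusted p = 0.458). A second probe set of Col6a4 was above background in 0 of 8 pools and showed differences of 0.18 in males and 0.23 in females, neither called. Among the dimmer probe sets of the collagen genes 2 were called by genotype, both lower in rsl mice in the average over sex (0.853% of all probe sets were lower there). One was the second probe set of Col5a2, above background in 8 of 8 pools, at -0.56 (adjusted p = 0.0497), where the brighter one showed -0.51 ± 0.13 (adjusted p = 0.106). The other was a probe set of Col1a2 above background in 4 of 8 pools, at -0.40 (adjusted p = 0.0406), where the brightest showed -0.13 ± 0.09 (adjusted p = 0.431).

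Col6a4 was 1 of 41 collagen genes called in males, where 1.32% of all probe sets were called (0.491% higher), and 1 of 41 in the average over sex, where 1.19% were (0.34% higher). In females 0 of 41 were called, against 0.209% of probe sets. Unadjusted p was under 0.05 for 11 of 41 in males (20.6% of probe sets), 5 of 41 in females (11% of probe sets) and 12 of 41 in the average (21.2% of probe sets). The call of Col6a4 depended on the arrays in the fit. With the 4 male arrays fitted alone limma called 0 of 41 collagen genes and 0% of probe sets, with 8 of 41 at an unadjusted p under 0.05 (12.3% of probe sets), and Col6a4 had an adjusted p of 0.379. The call was lost in males and in the average without any 1 of the 4 female arrays, and in males also without wild type male 2 (highest adjusted p = 0.379 in males and 0.077 in the average over all settings). Its difference stayed between 0.81 and 1.79 in males and between 0.70 and 1.34 in the average. Leaving out a single array also changed how many collagen genes were called. In males and in the average that count rose without rsl male 2 or wild type male 1 and fell without any 1 female array. In males it also fell without wild type male 2, and in females it rose when either rsl male array was left out. The count over all probe sets moved in the same direction each time.

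The means of the epididymis and epithelium lists also lay higher in rsl pools than in wild type pools of the same sex. In males the epididymis list was at 12.18 and 11.67 in rsl pools, against 7.04 and 5.29 in wild type pools. In females it had a mean of 4.06 and 3.97 in rsl pools, against 3.83 and 3.85 in wild type pools, with 7 and 7 of 10 markers above background in rsl and 7 and 6 of 10 in wild type. The epithelium list of 7 genes had 5.98 and 6.03 in rsl females, against 5.71 and 5.63 in wild type females. Of the 7 epithelium genes 6 were higher in rsl females and 1 lower, with a median difference of 0.21, and 0 were called. The largest of these differences was that of Cdh1 (E-cadherin, which joins epithelial cells). Cdh1 had 4.59 and 4.53 in rsl females, against 3.07 and 3.04 in wild type females, where it was below background. The part of these tissues in the Col6a4 difference was not tested.

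Col6a4 lies on chromosome 9 beside Col6a5, another chain of collagen VI, and 27854 bases separate the annotated genes (assembly GRCm38.p6, RefSeq). In males the neighbours differed in opposite directions, Col6a4 past the threshold and Col6a5 not. Col6a5 had 4.26 and 4.28 in rsl pools, against 4.94 and 5.38 in wild type pools, a difference of -0.89 ± 0.16 just outside the threshold (adjusted p = 0.0505). In females Col6a5 was not above background in any pool, at 3.57 and 3.61 in rsl and 3.53 and 3.82 in wild type. The interaction of sex and genotype for Col6a5 was -0.80 ± 0.22 (adjusted p = 0.281). The promoter windows of both genes are shown because these neighbours differed in opposite directions in the same pools. Each runs from 250 bases before to 50 bases after an annotated start on the minus strand, and capitals mark matches on either strand to the letters TATAAA, called a TATA box, to the letters CCAAT, named after themselves, or to the letters GGGCGG, called a GC box. The Col6a4 window is chr9:106096642-106096941 and the Col6a5 window is chr9:105960594-105960893.
Col6a4 promoter: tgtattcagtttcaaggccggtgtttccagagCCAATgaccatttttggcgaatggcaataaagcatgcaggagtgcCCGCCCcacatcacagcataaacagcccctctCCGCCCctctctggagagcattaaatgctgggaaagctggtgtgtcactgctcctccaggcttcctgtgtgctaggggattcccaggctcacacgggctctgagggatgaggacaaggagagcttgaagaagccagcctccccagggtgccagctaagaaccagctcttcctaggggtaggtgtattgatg
Col6a5 promoter: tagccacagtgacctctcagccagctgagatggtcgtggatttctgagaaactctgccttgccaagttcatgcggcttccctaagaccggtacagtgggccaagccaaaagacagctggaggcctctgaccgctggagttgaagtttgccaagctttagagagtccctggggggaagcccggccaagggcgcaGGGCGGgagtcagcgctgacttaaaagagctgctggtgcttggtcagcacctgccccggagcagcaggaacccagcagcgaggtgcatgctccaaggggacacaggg
The Col6a4 window holds 1 CCAAT box and 2 GC boxes, and the Col6a5 window holds 1 GC box. Of all 32851 windows of this length in the table, 37.4% hold a CCAAT box and 35.7% a GC box, so these matches are common.

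**Figure D2:**
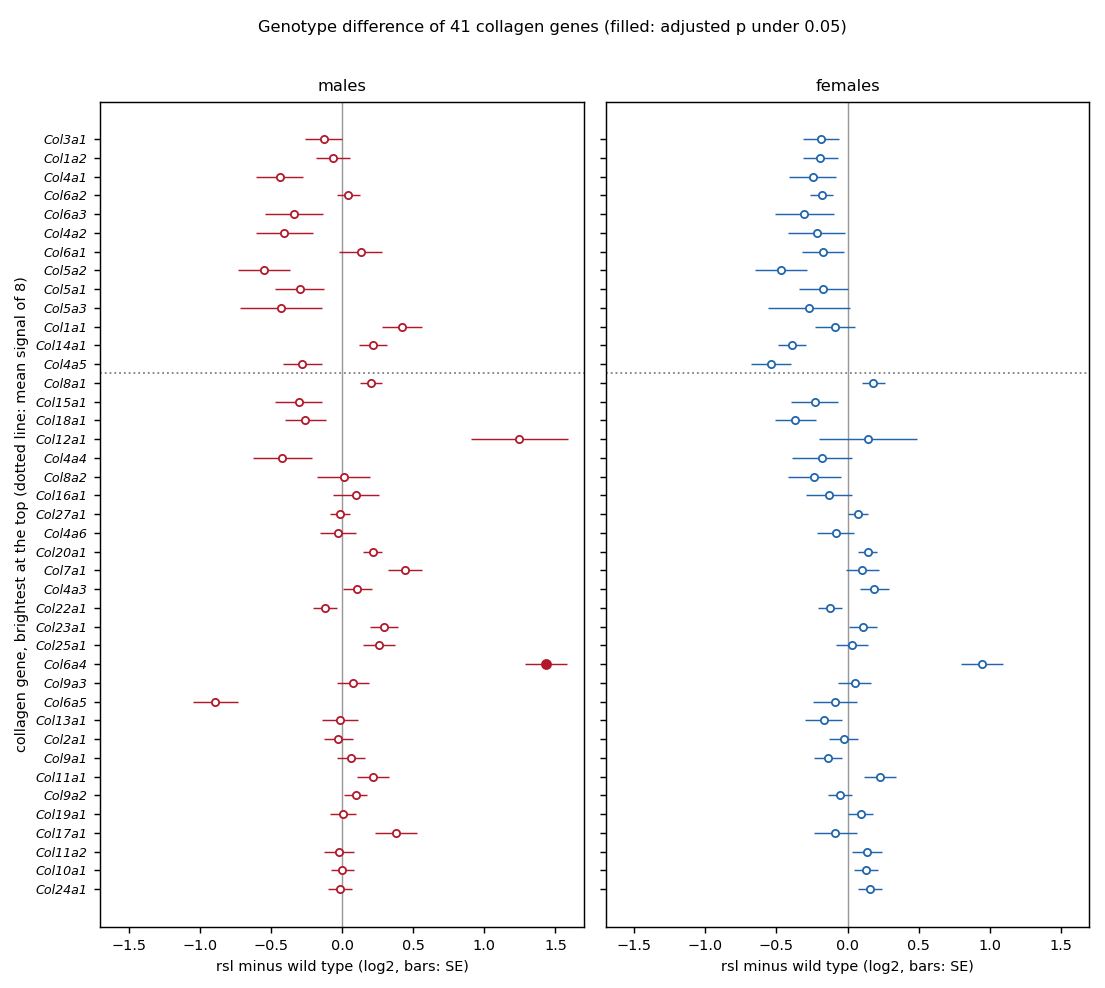
Difference between rsl and wild type pools in males (left) and females (right) for the 41 collagen genes, in log2 units with SE, ordered by mean signal with the brightest at the top. In males only Col6a4 is filled (adjusted p under 0.05). In females the 13 genes above the dotted line, with a mean signal over 8, all lie left of 0.

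In females the brighter collagens were lower in rsl mice by small amounts, none of which was called. All 13 collagen genes with a mean signal over 8 had a negative difference, from -0.54 to -0.09 with a median of -0.22, and for 12 of the 13 both rsl pools were below both wild type pools. Of the 6110 probe sets with a mean over 8, 52% had a negative difference and 33.8% had both rsl pools lower. The limit of 8 was chosen after the values were seen. All 13 differences were also negative with quantile normalization and with arrays centred on the median or on adipocyte markers. Of the 6110 probe sets 47.2%, 53.5% and 66.7% were negative under these scalings. Over all 41 genes 21 were lower without overlap (23.9% of probe sets) and 9 were higher without overlap (27.3% of probe sets), and the median difference was -0.09, against 0.01 over all probe sets. The 13 were 6 fibrillar, 3 basement membrane and 3 beaded filament genes and Col14a1.

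The largest of these female differences were those of Col4a5, Col5a2 and Col14a1. Col4a5, a chain of basement membrane collagen IV, had 7.81 and 7.74 in rsl females, against 8.39 and 8.23 in wild type females (-0.54 ± 0.14, adjusted p = 0.258). Col5a2, a chain of type V that is known to limit the width of collagen fibrils, had 9.91 and 9.96 in rsl, against 10.42 and 10.38 in wild type (-0.47 ± 0.18, adjusted p = 0.425). Col14a1, whose product lies on the surface of fibrils, had 9.14 and 9.21 in rsl, against 9.63 and 9.50 in wild type (-0.39 ± 0.10, adjusted p = 0.242). In each of the 3 genes the groups did not overlap.

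The female result depended on which arrays shared the estimate of the spread. With the 4 female arrays fitted alone, 5 collagen genes were called, 1 higher and 4 lower (4.46% of probe sets, 1.3% higher and 3.16% lower): Col5a2 (adjusted p = 0.0165), Col14a1 (0.0401), Col4a5 (0.0162) and Col18a1 (0.0391) fell and Col6a4 (0.00149) rose. Col18a1, a collagen of vascular and epithelial basement membranes, had 7.37 and 7.29 in rsl females, against 7.67 and 7.72 in wild type females. In the same pools the fibroblast and progenitor list (10 of 10 genes above background) had a mean of 9.31 and 9.36 in rsl females, against 9.73 and 9.64 in wild type females. The mesothelium list (8 of 8 above background) had 7.89 and 7.99 in rsl females, against 8.38 and 8.40 in wild type females. The endothelial list (10 of 10 above background) had 7.75 and 7.86 in rsl females, against 8.21 and 8.24 in wild type females, with negative differences for 10 of 10 genes (-0.77 to -0.12, none called). The macrophage list (10 of 10 above background) had 8.59 and 8.75 in rsl females, against 8.96 and 8.95 in wild type females, also with 10 of 10 negative. The skeletal muscle list had 7.30 and 5.59 in rsl females, against 7.88 and 7.56 in wild type females. The means of these lists were lower in both rsl pools, as the brighter collagens were. The adipocyte list had 11.83 and 11.82 in rsl females, against 11.80 and 11.75 in wild type females. The part of these cell types in the result was not tested.

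In males the same genes did not share a direction. Of the 13 brighter collagens 9 were lower in rsl males and 4 higher, where 65.5% of the 6110 probe sets with a mean over 8 were lower. With adipocyte centring 4 of 13 were lower (19.2% of the 6110 probe sets). As deposited, 4 were lower without overlap between pools (39.5% of the 6110 probe sets). Rsl male pool 1 had the lowest signal of all 8 pools for 9 of the 29 genes above background, and wild type female pool 1 had the highest for 10. Col5a3, a chain of type V, had 8.21 and 9.26 in rsl males, against 9.21 and 9.13 in wild type males, so only rsl pool 1 was low. The adipocyte list was also lowest in that pool (11.10, and 11.66 in rsl pool 2, against 11.66 and 11.79 in wild type males), as was the endothelial list (7.02 and 7.95, against 8.06 and 8.32).

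Some dimmer collagens had higher signals in rsl males without being called. Col12a1, a fibril-associated collagen, had 7.83 and 6.85 in rsl pools, against 6.48 and 5.71 in wild type pools (1.25 ± 0.34, adjusted p = 0.117), and Col7a1, of the fibrils that anchor epithelia, had 5.32 and 4.98, against 4.74 and 4.68 (0.44 ± 0.12, adjusted p = 0.111). The accessions of the Col12a1 probe sets were not matched to a gene in the table used here, and its second probe set showed a difference of 0.10. For both genes the 4 male pools had the same order as the epididymis list (12.18, 11.67, 7.04 and 5.29). The epithelium list (7 genes) also had this order, with 8.35 and 7.63 in rsl, against 7.50 and 6.36 in wild type. The female pools did not follow it for either gene, while the epididymis list had 3.83 to 4.06 in females. Col12a1 had 6.99 and 6.78 in rsl and 6.75 and 6.73 in wild type females, all above both wild type male pools. Col7a1 had 4.86 and 4.77 in rsl females, against 4.66 and 4.77 in wild type females. For Col7a1 both rsl female pools and wild type female pool 2 were above both wild type male pools. The part of those cells in these values was not tested.

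More collagen genes were called between the sexes than between the genotypes. Averaged over strain, 13 of the 41 were called, 7 higher and 6 lower in males, where 16.8% of probe sets were called (6.9% higher and 9.91% lower). Without overlap between the 4 male and 4 female pools, 8 were higher (7.57% of probe sets) and 9 lower (11% of probe sets). Within rsl mice 11 were called (6 higher, 5 lower; 12.3% of probe sets, 4.73% higher and 7.61% lower) and within wild type mice 8 (5 higher, 3 lower; 3.83% of probe sets, 1.61% higher and 2.22% lower). In both strains 7 genes were called in the same direction. The 2 contrasts share no pools, but they share an estimate of the spread from all 8 arrays, so their calls are not independent. The 7 genes were 63.6% of the 11 called in rsl and 87.5% of the 8 called in wild type. Over all probe sets those shares were 18.8% and 60.5%, and 2.32% of probe sets were called in both. The genes called in both were Col4a4, Col4a5, Col6a5, Col8a1 and Col23a1, higher in males, and Col14a1 and Col6a2, lower in males. The interaction of sex and genotype called 0 of 41 collagen genes (0.0577% of probe sets), with 4 of 41 at an unadjusted p under 0.05 (10.8% of probe sets).

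These counts changed with single arrays. The counts in the average over strain, the rsl contrast and the interaction rose when rsl male 2 was left out. The wild type count rose when either rsl male array was left out. Every sex count fell without any 1 female array. The rsl count also fell without rsl male 1, and the wild type count when either wild type male array was left out. In these cases the count over all probe sets moved in the same direction. In some smaller changes it moved the other way. Without rsl male 1 the collagen count in the average rose while the count over all probe sets fell. Without either wild type male array the collagen count in rsl mice fell while the count over all probe sets rose. Col4a4, Col4a5, Col6a5, Col8a1, Col14a1, Col6a3 and Col23a1 were called in the average under all 15 alternatives, and the other 6 were lost under at least 1.

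**Figure D3:**
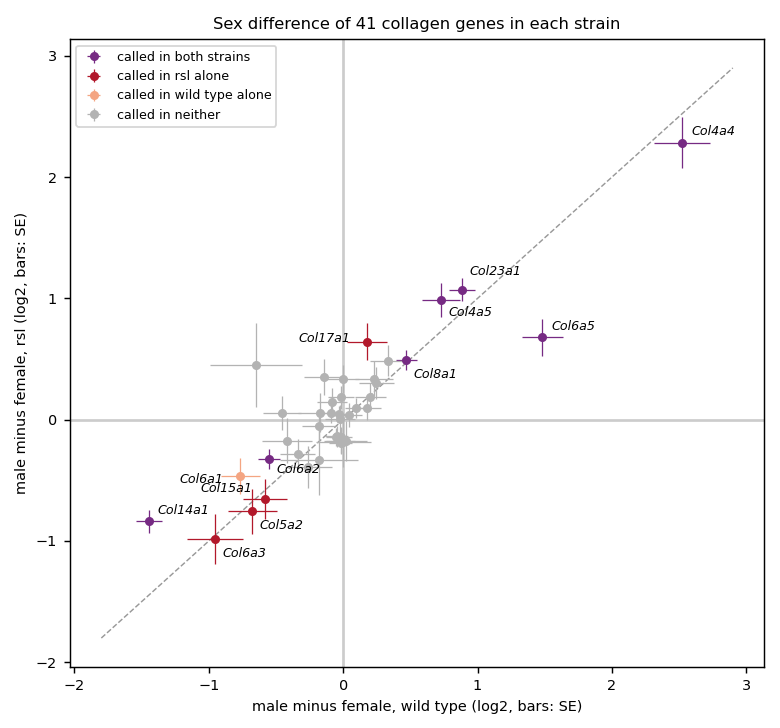
Difference between male and female pools in wild type mice (horizontal axis) and rsl mice (vertical axis) for the 41 collagen genes, in log2 units with SE. The 7 purple genes were called in both strains, Col4a4 stands apart at the upper right, and Col14a1 and Col6a5 lie farthest from the dashed line of equal differences among the called genes.

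Among the basement membrane collagens, Col4a4 showed the widest sex difference of the family. It is a chain of the collagen IV network best known from the kidney glomerulus, which Col4a3 and Col4a5 also build. It had 7.97 and 7.34 in rsl males and 8.03 and 8.12 in wild type males, against 5.56 and 5.18 in rsl females and 5.52 and 5.58 in wild type females. Every male pool was above every female pool, and the average difference was 2.40 ± 0.15 (5.29-fold, adjusted p = 0.000328). A second Col4a4 probe set showed 2.13, and the other one, above background in 4 of 8 pools, 0.43. Col4a5 had 8.76 and 8.76 in rsl males and 8.82 and 9.26 in wild type males, against 7.81 and 7.74 in rsl females and 8.39 and 8.23 in wild type females (0.86 ± 0.10, adjusted p = 0.00281). The groups again did not overlap. For Col4a3 the probe sets disagreed. The brighter showed 0.14 and was not called (adjusted p = 0.252). The other, above background in 6 of 8 pools, was called at 1.21 (adjusted p = 0.00352), so the call of Col4a3 is uncertain. Col4a1 and Col4a2, the chains found in nearly all basement membranes, were not called, and neither was Col4a6.

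The Col4 genes sit in pairs that are read away from each other. Annotated Col4a4 and Col4a3 overlap by 114 bases at their starts on chromosome 1, Col4a1 and Col4a2 by 85 bases on chromosome 8, and 1274 bases separate Col4a6 from Col4a5 on the X chromosome. The windows of Col4a4 (minus strand, chr1:82586800-82587099) and Col4a5 (plus strand, chrX:141475169-141475468) are shown. These were the 2 type IV genes whose brightest probe set was called higher in males. The Col4a4 window also holds the annotated start of Col4a3 on the other strand, at base 82586921. Capitals mark the same motifs as above.
Col4a4 promoter: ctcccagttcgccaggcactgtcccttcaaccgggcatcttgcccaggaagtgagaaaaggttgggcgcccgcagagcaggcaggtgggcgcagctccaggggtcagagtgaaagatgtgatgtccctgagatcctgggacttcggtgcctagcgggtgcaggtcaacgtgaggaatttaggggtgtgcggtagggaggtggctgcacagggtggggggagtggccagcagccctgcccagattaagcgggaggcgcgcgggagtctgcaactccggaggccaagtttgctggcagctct
Col4a5 promoter: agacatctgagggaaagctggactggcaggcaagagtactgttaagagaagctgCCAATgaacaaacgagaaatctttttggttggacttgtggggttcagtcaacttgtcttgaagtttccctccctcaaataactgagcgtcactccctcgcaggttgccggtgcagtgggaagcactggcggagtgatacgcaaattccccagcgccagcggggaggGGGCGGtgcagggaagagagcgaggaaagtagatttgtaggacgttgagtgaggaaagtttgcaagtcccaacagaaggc
The Col4a4 window holds 0 matches, and the Col4a5 window holds 1 CCAAT box and 1 GC box. A window was given for 33 collagen genes, and 21 of these have a GC box, 13 a CCAAT box and 5 a TATA box, the last of which is in 13.6% of all windows.

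The common chains of collagen VI went the other way. Col6a1, Col6a2 and Col6a3, which assemble into the beaded filaments of adipose tissue, were all lower in males. Col6a3 had 9.36 and 10.04 in rsl males and 9.92 and 10.15 in wild type males, against 10.74 and 10.64 in rsl females and 10.99 and 11.00 in wild type females (-0.97 ± 0.15, adjusted p = 0.00693). Col6a1 had 9.61 and 10.05 in rsl males and 9.61 and 9.80 in wild type males, against 10.33 and 10.25 in rsl females and 10.51 and 10.42 in wild type females (-0.61 ± 0.10, adjusted p = 0.0105). Col6a2 had 10.30 and 10.41 in rsl males and 10.34 and 10.28 in wild type males, against 10.73 and 10.62 in rsl females and 10.88 and 10.83 in wild type females (-0.44 ± 0.06, adjusted p = 0.00428). Male and female pools did not overlap for any of the 3. With arrays centred on adipocyte markers Col6a1 and Col6a2 were no longer called in the average, and the Col6a2 difference in rsl mice turned to 0.13.

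The other members of type VI differed from these chains. Col6a5 was above background in all 4 male pools and in 0 of 4 female pools, and was at least 1.78-fold higher in males (adjusted p = 0.00186), at least 1.28-fold in rsl (adjusted p = 0.0346) and at least 2.48-fold in wild type (adjusted p = 0.0056). These bounds set the mean of the male pools against the background of the female arrays. Col6a4 showed no called sex difference (0.11 ± 0.10 in the average, adjusted p = 0.555).

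Among fibril-associated and fibrillar collagens, Col14a1 and Col5a2 were lower in males. Col14a1 had 8.23 and 8.44 in rsl males and 8.09 and 8.15 in wild type males, against 9.14 and 9.21 in rsl females and 9.63 and 9.50 in wild type females (-1.14 ± 0.07, 2.21-fold, adjusted p = 0.000278). A second probe set showed -0.88. The difference was -0.84 ± 0.10 in rsl mice and -1.45 ± 0.10 in wild type mice, and the interaction was 0.61 ± 0.13 (adjusted p = 0.214). Col5a2 had 8.88 and 9.47 in rsl males and 9.60 and 9.85 in wild type males, against 9.91 and 9.96 in rsl females and 10.42 and 10.38 in wild type females (-0.72 ± 0.13, adjusted p = 0.0126). Male and female pools did not overlap for Col14a1 or for Col5a2. For the bulk fibril chains the probe sets disagreed. The brightest of Col3a1 was not called (-0.31 ± 0.09, adjusted p = 0.0579), and the dimmer, above background in 8 of 8 pools, was called at -0.62 (adjusted p = 0.0197). The brightest of Col1a2 was not called (-0.12 ± 0.09, adjusted p = 0.413), and one above background in 4 of 8 pools was called at -0.37 (adjusted p = 0.0101). The brighter of Col1a1 showed -0.20, and the other was called at -0.79 (adjusted p = 0.0153).

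Of the remaining classes, Col15a1 was lower and 4 genes were higher in males. Col15a1, found where basement membranes meet fibrils, had 7.07 and 7.53 in rsl males and 7.70 and 7.51 in wild type males, against 8.09 and 7.82 in rsl females and 8.18 and 8.19 in wild type females (-0.62 ± 0.12, adjusted p = 0.0146). For its relative Col18a1 the brighter probe set was not called (0.28 ± 0.10, adjusted p = 0.104), and the other, above background in 8 of 8 pools, was called at 0.49 (adjusted p = 0.00621). Col8a1, a short chain collagen of vessel walls, had 8.13 and 8.20 in rsl males and 7.91 and 8.01 in wild type males, against 7.72 and 7.63 in rsl females and 7.53 and 7.45 in wild type females (0.48 ± 0.06, adjusted p = 0.00298). Its 5 probe sets gave between -0.05 and 0.79, with 2 of them never above background.

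The transmembrane collagens, which span the cell membrane, were called higher in males in the average in 3 of 4 cases (6.9% of probe sets). Col23a1 had 5.26 and 5.05 in rsl males and 4.84 and 4.87 in wild type males, against 4.13 and 4.03 in rsl females and 3.90 and 4.04 in wild type females (0.98 ± 0.07, adjusted p = 0.000499). Its 2 other probe sets showed 0.48 and 0.50. Col13a1 had 4.37 and 4.29 in rsl males and 4.14 and 4.54 in wild type males, against 3.83 and 3.85 in rsl females and 4.04 and 3.98 in wild type females (0.41 ± 0.09, adjusted p = 0.0248). Col17a1, of the junctions that hold epithelial cells to their base, was above background in 1 of 4 male and 0 of 4 female pools, so its call (0.41 ± 0.11, adjusted p = 0.0413) rests on signals near background. Col25a1 was not called.

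**Figure D4:**
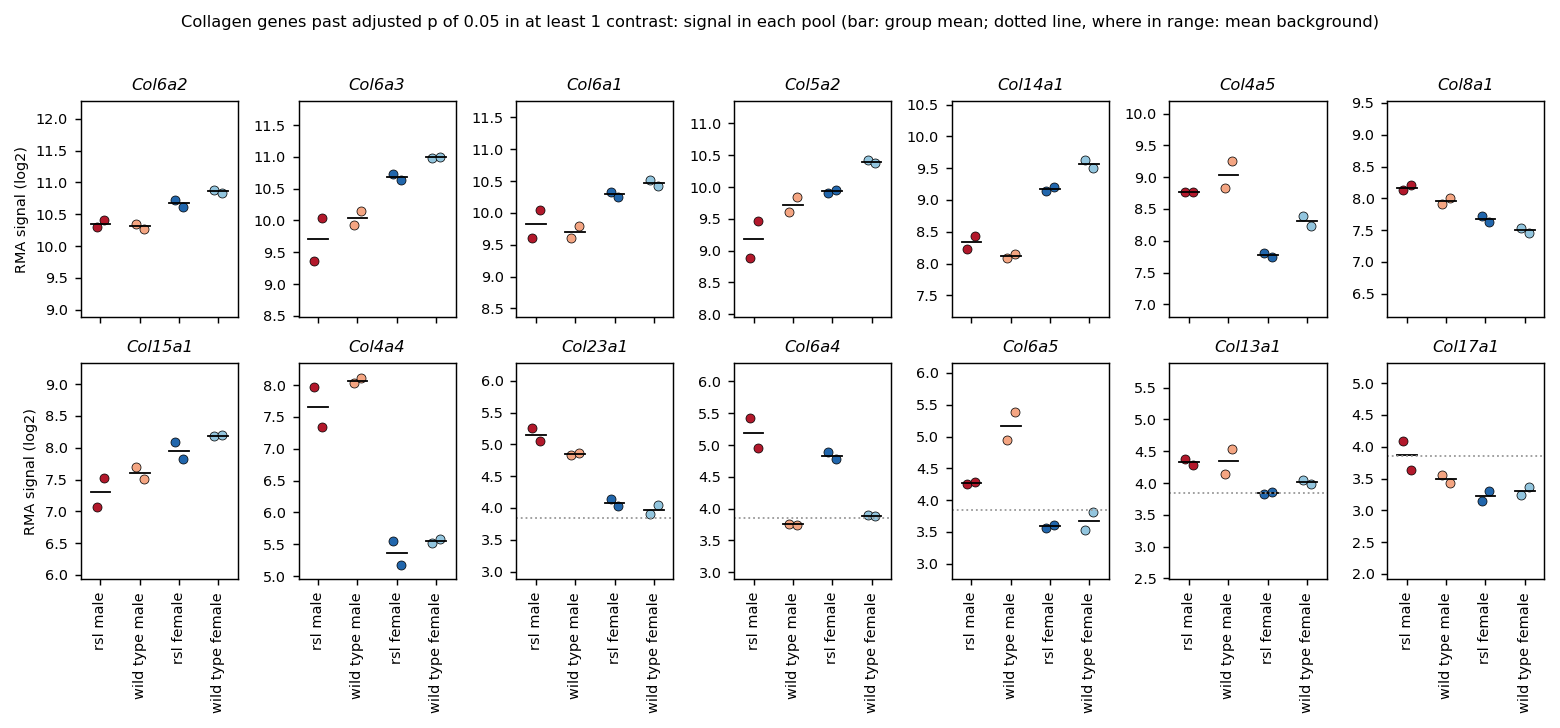
Log2 signal in each pool (points) with the group mean (bar) for the 14 collagen genes called in at least 1 contrast, each panel spanning the same height in log2 units. Col6a4 separates by genotype in both sexes, and the other 13 separate the 4 male pools from the 4 female pools. The dotted line is the mean background of the arrays.

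Markers of other cells moved with these sex differences. With the male-lower collagens, the mesothelium list (8 of 8 genes above background everywhere) had 6.73 to 6.95 in rsl males and 7.08 to 7.09 in wild type males, against 7.89 to 7.99 in rsl females and 8.38 to 8.40 in wild type females. The fibroblast and progenitor list (10 of 10 above background) had 8.78 to 8.90 and 9.02 to 9.19 in rsl and wild type males, against 9.31 to 9.36 and 9.64 to 9.73 in rsl and wild type females. The mural list, of the cells around vessels (8 of 8 above background), had 8.97 to 9.31 in males, against 9.63 to 9.81 in females, with 5 of 8 genes called lower and 0 higher. The skeletal muscle list had 4.31 to 4.50 in males, against 5.59 to 7.88 in females, with 9 of 10 genes called lower and 0 higher. Over all probe sets 9.91% were called lower and 6.9% higher in males in the average. With the male-higher collagens, the testis and sperm list had 5.10 to 6.81 in males and 3.75 to 3.88 in females, with 6 to 8 of its 8 genes above background in males and 2 to 4 in females. The epithelium list had 6.36 to 8.35 in males, against 5.63 to 6.03 in females, with 5 of 7 genes called higher and 0 lower, and in the epididymis list 10 of 10 were called higher. Col4a4 was lowest among male pools in rsl male 2, as was the testis list (5.10), while the epididymis list was lowest in wild type male 2. The part of these cells in the results was not tested. Centring the arrays on the adipocyte markers shifted the median of all probe sets by 0.25 in the average. With this centring 9 collagens were called higher and 2 lower in males in the average. Of the 45037 probe sets 3829 were called higher and 821 lower there. In rsl alone 11 collagens were called higher and 0 lower, after a shift of 0.45. Among all probe sets 4450 were called higher and 438 lower in rsl. Col14a1 and Col6a3 were the 2 called lower in the average there.

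**Figure D5:**
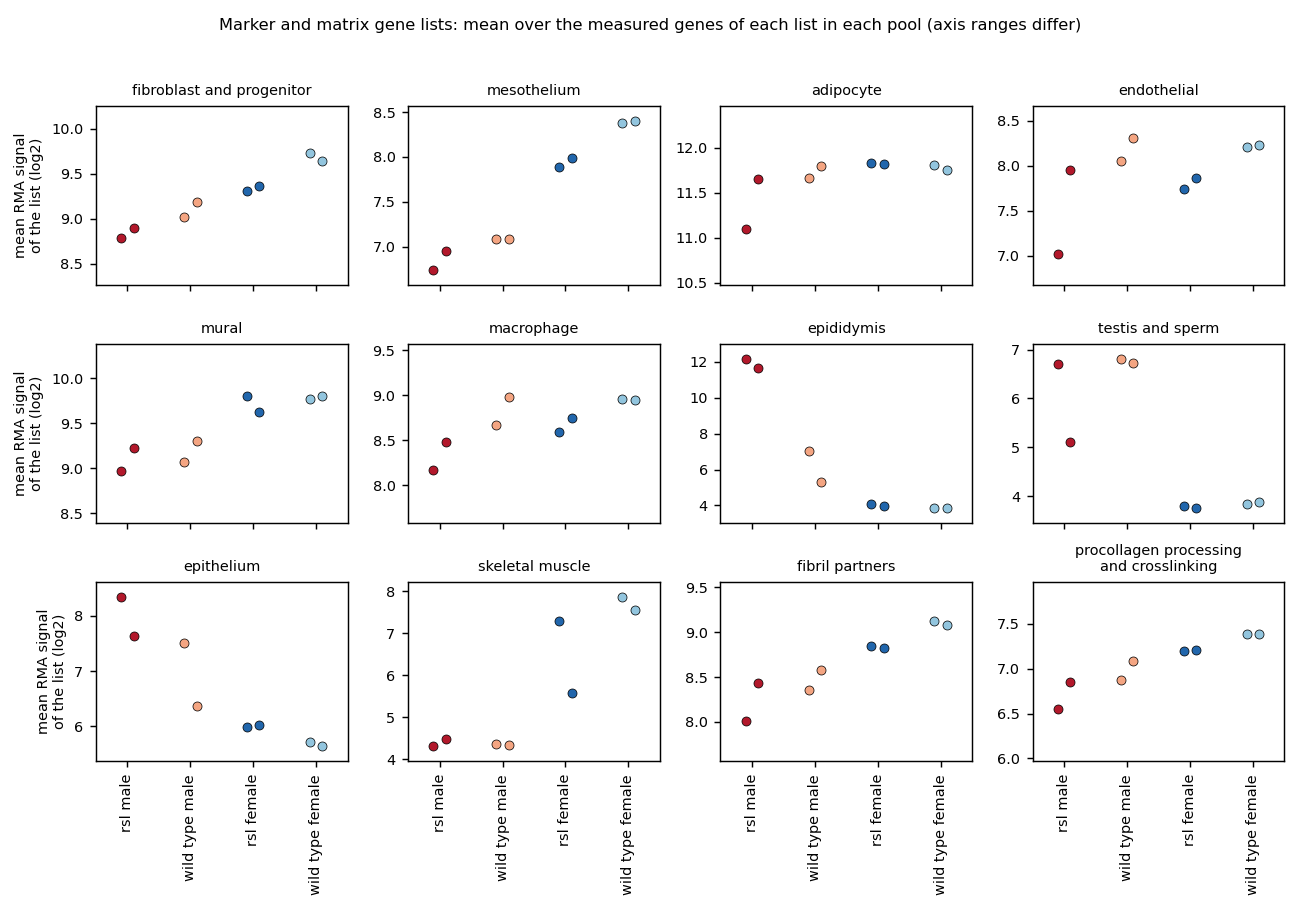
Mean log2 signal over the measured genes of 12 lists in each pool, with rsl and wild type males left of rsl and wild type females and an axis range of its own in each panel. The fibroblast, mesothelium, mural, skeletal muscle, fibril partner and procollagen processing lists are lower in males, and the epididymis, testis and epithelium lists are higher there.

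Genes that act on collagens were compared by the same fit, in lists drawn up with earlier results of these data known. Proteins that fold and modify new chains split by sex, with 9 of 20 lower and 4 of 20 higher in males (9.91% of probe sets were lower and 6.9% higher). Serpinh1, the collagen chaperone, was lower in males, with a difference of -0.73 ± 0.10 (adjusted p = 0.00486), and so were Plod2, a lysyl hydroxylase (-1.62 ± 0.30, adjusted p = 0.0144), and P4ha1, a catalytic subunit of prolyl hydroxylase (-0.83 ± 0.11, adjusted p = 0.00395). P4ha2, an alternative form of that subunit, was called higher in males in the average over strain (1.05 ± 0.18, adjusted p = 0.0105). It had 10.31 and 9.46 in rsl males, against 7.14 and 7.47 in wild type males (2.58 ± 0.25, adjusted p = 0.0121). In females it had 7.45 and 7.54 in rsl pools, against 7.62 and 7.58 in wild type pools. In wild type mice both male pools were below both female pools. Only the rsl male pools were high, those in which the epididymis list was at 12.18 and 11.67. The part of that tissue was not tested.

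Of the lists of later steps, all but the basement membrane partners had more genes called lower than higher in males. Against 9.91% of all probe sets lower and 6.9% higher in males, 6 of 13 measured genes for procollagen processing and crosslinking were lower, 0 higher and 7 not called, among them Adamts3, which trims procollagen, at -1.04 ± 0.09 (adjusted p = 0.00101) and the crosslinking enzyme Loxl2 at -1.09 ± 0.13 (adjusted p = 0.00337). Of 18 fibril partners 12 were lower, 1 higher and 5 not called. Dcn, Lum and Fbn1 of these are also in the fibroblast and progenitor list. Postn (periostin) changed by -1.39 ± 0.07 (adjusted p = 0.000187) and Lum (lumican) by -1.36 ± 0.12 (adjusted p = 0.0013), while Fmod (fibromodulin) was higher by 1.21 ± 0.05 (adjusted p = 0.000112). Of 19 genes for collagen breakdown 10 were lower, such as Mmp3 at -2.55 ± 0.17 (adjusted p = 0.000435) and the uptake receptor Mrc2 at -1.04 ± 0.06 (adjusted p = 0.00025), and 1 was higher, the macrophage elastase Mmp12 at 1.73 ± 0.39 (adjusted p = 0.0274). The other 8 were not called. Of 15 basement membrane partners 10 were not called, 4 were higher, among them Lama3 of epithelial laminin at 0.59 ± 0.13 (adjusted p = 0.0274), and 1 was lower, Lamb1 at -0.68 ± 0.10 (adjusted p = 0.0072).

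Receptors and growth signals had calls in both directions, beside 6.9% of all probe sets higher and 9.91% lower. Of 8 measured collagen receptors 5 were not called, Ddr1 was higher in males by 0.56 ± 0.15 (adjusted p = 0.0432), and Ddr2 (-0.64 ± 0.13, adjusted p = 0.0204) and Itga1 (-0.71 ± 0.09, adjusted p = 0.00381) were lower. Of 23 genes of TGF-beta and PDGF signalling 3 were higher, 3 lower and 17 not called, counts close to those shares. Ltbp2, which binds to microfibrils, was higher by 1.25 ± 0.13 (adjusted p = 0.00206), and the receptor gene Tgfbr2 was lower (-0.77 ± 0.11, adjusted p = 0.00672).

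By genotype, 3 of the 116 genes of these lists were called in males (1.32% of probe sets) and 6 in the average over sex (1.19% of probe sets). Pcolce2, which enhances the trimming of procollagen, had 6.44 and 7.17 in rsl males, against 8.10 and 8.40 in wild type males (-1.44 ± 0.22, adjusted p = 0.0399), and 7.96 and 8.06 in rsl females, against 8.89 and 8.85 in wild type females. All 4 rsl pools were below the wild type pools of their sex, and the average was -1.15 ± 0.16 (adjusted p = 0.0298). Fmod rose in rsl males by 0.47 ± 0.08 (adjusted p = 0.045). In the average over sex Thbs2 fell by 0.61 ± 0.07 (adjusted p = 0.0224), Fap by 0.65 ± 0.10 (adjusted p = 0.0436), Nid2, a linker of basement membranes, by 0.70 ± 0.12 (adjusted p = 0.0497) and Ogn (osteoglycin) by 0.45 ± 0.06 (adjusted p = 0.0324). In females limma called 0 of the 116 genes (0.209% of probe sets), with 28 at an unadjusted p under 0.05 (11% of probe sets).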

How the data were processed

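Pooled RNA of abdominal white adipose tissue (400 ng each) was labelled with a kit that primes at the 3' end and put on Affymetrix mouse arrays of perfect match probes, per the labels' protocols. The authors deposited a log2 value for each probe set, made with RMA per the submitters' processing notes; its version is not given in the sources used here. Gene symbols came from the other unit, annotation text of the authors' deposited table. The 8 value columns of that table match no sample label and were not used.

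Of 45141 probe sets 104 controls were set aside and 45037 tested with limma 3.58.1 (lmFit and eBayes) in R 4.3.3, with 4 groups of 2 pools, 4 residual and 3.00 prior degrees of freedom, in 7 contrasts, two-sided, with Benjamini-Hochberg adjustment. Depth does not apply to arrays, and their number limits the precision. Nothing states that the pools come from separate mice, so p-values measure the spread between pools. Background was the highest of 22 non-specific controls with GC counts of 3 to 24 on each array; the control with 25 was not used, a choice made with its values in view. The fit was tested on simulated data.

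The members, the classes and the gene lists were chosen with earlier results of these data known. Some lists overlap. Of the fibroblast and progenitor list, Dcn, Lum and Fbn1 are also fibril partners, Fap is also in collagen breakdown and Pdgfra in signalling. Pdgfrb of the mural list is also in signalling. The genes named are every collagen gene the text needs, with those called in any contrast and the 2 brightest of each class in full, and, in each list, up to 6 called genes with the largest change. Accessions of 78 of the 81 collagen probe sets named the same gene in the RefSeq table (GRCm38.p6), and 3 were not matched. Promoter sequences are from RefSeq, GRCm38.p6; 33 of 41 collagen genes matched. The alternatives were a fit of the groups compared alone, the replicate number as a block, a variance prior with an intensity trend, a filter on dim probe sets, 3 other scalings, the mean over a gene's probe sets and leaving out each of the 8 arrays.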

Additional observations from a re-analysis of the deposited data

How the results depend on the processing

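Over 16 alternative settings, the 34 called collagen differences gave 528 values, of which 407 kept direction and call, 120 kept the direction without the call and 1 turned: the Col6a2 difference between males and females in rsl mice was 0.13 with arrays centred on adipocyte markers. That centring moved the median of all probe sets by 0.35 in the male genotype contrast, 0.15 in the genotype average, 0.45, 0.05 and 0.25 in the rsl, wild type and average sex contrasts and 0.40 in the interaction. The share of all calls that were higher became 86.8%, 63.5%, 91%, 58.9% and 82.3% in the first 5 of these, against 37.2%, 28.5%, 38.3%, 42.1% and 41.1% as deposited, and 38.2%, against 55.3%, in the female genotype contrast. The wild type sex contrast then called 5 collagen genes. Fits of the groups compared alone called 0 collagen genes by genotype in males, 5 in females and 5 by sex in rsl mice. The male genotype contrast called 2 with the replicate block, the intensity trend, the filter on dim probe sets, median centring or adipocyte centring. In that order, the calls over all probe sets tested were 1034, 615, 649, 718 and 1087, against 594 as deposited. Leaving out 1 array gave 0 to 15 collagen genes by genotype in males, 0 to 1 in females and 0 to 14 in the average, 2 to 18 by sex in rsl mice, 2 to 11 in wild type mice and 8 to 21 in the average, and 0 to 3 for the interaction. In these fits the lone pool of a group is assumed to vary like the other groups. For each contrast, the fit with the most collagen calls among them also had the most calls over all probe sets. The swings were therefore not particular to collagens. The cause of these changes was not tested. Pools with the same replicate number were not treated as pairs: their deviations correlated by 0.35 between rsl and wild type males and by -0.05 to 0.11 otherwise. With background set by the control of GC count 25 as well, chosen after seeing the data, 17 collagen genes were above it in all 8 pools, against 29. Signals near background limit Col6a4 in wild type, Col6a5 in females and Col17a1.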
